A study of Mus musculus with 20 samples.

Results

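AKR1B10, an aldo-keto reductase, and 9 genes of the NRF2 antioxidant programme were followed through knockdown (KD) of the RNA-binding protein HuR, in human liver cells inside humanized mice and in the livers of wild type (WT) mice. The members were AKR1B10, NFE2L2, NQO1, GCLC, GCLM, TXNRD1, SRXN1, HMOX1, ME1 and OSGIN1, found by gene symbol ignoring case. All 10 had 1 entry among the 60607 genes of the human table and 1 among the 55335 genes of the mouse table. AKR1B10 was chosen from its own values in the humanized mouse livers, so its change there is described and not tested. The other 9, also chosen with earlier results of these data known, ask whether the rest of the programme was lower too.

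The series holds 20 livers, each profiled by total RNA sequencing. WT animals were male C57BL/6 mice bought at 8 weeks of age and housed for 10 to 14 days, and 6 received an adenovirus with an shRNA against mouse HuR while 6 received the LacZ control virus. Humanized animals were TK-NOG mice, immune-deficient NOG mice with a herpes simplex virus thymidine kinase transgene driven in liver cells by a mouse albumin promoter. At 8 to 9 weeks of age they were given ganciclovir at 25 mg/kg, which kills cells with the transgene, and then 1000000 cryopreserved primary human hepatocytes. They were used at serum human albumin above 0.5 mg/ml, measured 8 to 12 weeks after transplantation, and 4 received the virus against human HuR while 4 received the LacZ virus. All mice, controls included, thus carried an adenovirus, at 2000000000 pfu each, and livers were taken on day 7 after a 4 h fast. The humanized livers keep mouse cells beside the human hepatocytes, and their table lists human genes only. Species, host strain, age, ganciclovir treatment, transplantation, shRNA and read length (75 bases against 50) all change between the humanized and the WT set. Their parts cannot be told apart. The authors state that the human hepatocytes came from few donors.

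NRF2, the protein encoded by NFE2L2, is held in the cytoplasm by KEAP1, which marks it for degradation. Oxidants and electrophiles modify KEAP1, NRF2 then enters the nucleus, pairs with a small MAF protein and binds antioxidant response elements in front of its target genes. The targets make glutathione and reduced thioredoxin, supply NADPH, break down haem and remove reactive carbonyls and quinones, and in the liver they set much of the capacity against drugs and lipid peroxides. AKR1B10, which reduces aldehydes and retinal, is a widely used NRF2 target in human cells. HuR binds AU-rich stretches of mRNAs and often stabilises them.

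The core of the antioxidant response element, TGACNNNGC, was searched on both strands in mouse promoters from RefSeq (GRCm38), taken from 250 bases before to 50 bases after each gene start. It overlaps the AP-1 motif TGACTCA when the spacer reads TCA. Of 32851 such windows, 12.4% held it. Windows were listed for 8 of the 10 mouse members, all but Gclc and Hmox1, and 5 of the 8 held the core, which is shown because it is the letters NRF2 binds. A gene counted if any of its windows held the core, and Txnrd1 had 3 windows and Me1 2. The count of genes is therefore not on the scale of the share of windows. Each line gives the gene's own strand, with the motif in capitals (reading GCNNNGTCA where it lies on the opposite strand) and 10 bases on either side.
Nfe2l2, chr2:75704885-75704913, minus strand: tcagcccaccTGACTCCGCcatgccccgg
Gclm, chr3:122245413-122245441, plus strand: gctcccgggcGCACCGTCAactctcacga
Txnrd1, chr10:82859104-82859132, plus strand: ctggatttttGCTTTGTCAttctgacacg
Srxn1, chr2:152105542-152105570, plus strand: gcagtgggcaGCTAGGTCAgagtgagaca
Me1, chr9:86695902-86695930, minus strand: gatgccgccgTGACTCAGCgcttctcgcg
The core began 240 bases before the listed start in Nfe2l2, 134 in Gclm, 92 in 1 of the 3 windows of Txnrd1 and 6 in 1 of the 2 windows of Me1, where it also holds the AP-1 letters. In Srxn1 it began at base 29 after the listed start. The windows of Akr1b10, Nqo1 and Osgin1, and those of the relatives Akr1b7 and Akr1b8, did not hold these letters. Human promoters and proteins were not used here.

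HuR mRNA was lower after KD in both sets, with no overlap of the groups. ELAVL1, the human HuR gene, was at 4.05, 2.37, 3.54 and 3.90 TPM (transcripts per 1000000) in the KD livers and at 5.76, 4.77, 6.17 and 5.99 in the LacZ livers (log2 fold change -0.59 ± 0.17 SE, limma unadjusted p = 0.00634, adjusted p = 0.214). Elavl1 ran from 3.72 to 5.62 TPM in the KD livers and from 8.58 to 10.7 in the LacZ livers (log2 fold change -0.83 ± 0.089 SE, limma adjusted p = 0.00105). Library totals recovered from the TPM ran from 2670455 to 20302416 reads on human genes and from 1423985 to 44668271 reads on mouse genes. KD liver 4 and LacZ liver 2 of the humanized set stood apart, with 20302416 and 19891534 reads and 49.1% of the TPM in mitochondrial ribosomal RNA, against 27.2% to 36.0% in the other 6. The members' results are also given without both, a choice made after seeing the data. In the WT set, LacZ liver 2 had the lowest total and KD liver 6 the next, 12960373 reads.

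In the humanized livers AKR1B10 (ENSG00000198074.10) was the most abundant member by far and the one with the largest difference. It was at 130, 128, 189 and 143 TPM in KD livers 1 to 4 and at 987, 476, 1117 and 1212 TPM in LacZ livers 1 to 4. All 4 KD livers lay below all 4 LacZ livers, and the lowest LacZ value was that of liver 2, 1 of the 2 libraries that stood apart. The KD mean was 15.6% of the LacZ mean, a 6.42-fold lower level, and the fitted log2 fold change was -2.61 ± 0.29 SE on the log2(TPM + 1) scale. Between the 2 libraries that stood apart the ratio was 3.33 (476 against 143 TPM). Without them it was 7.40, from 1105 ± 113 TPM in LacZ (SD, n = 3) to 149 ± 34.7 in KD (SD, n = 3). These values rest on 360 to 9267 reads per liver. In such bulk livers, fewer cells of a type and less RNA per cell cannot be told apart.

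**Figure D1:**
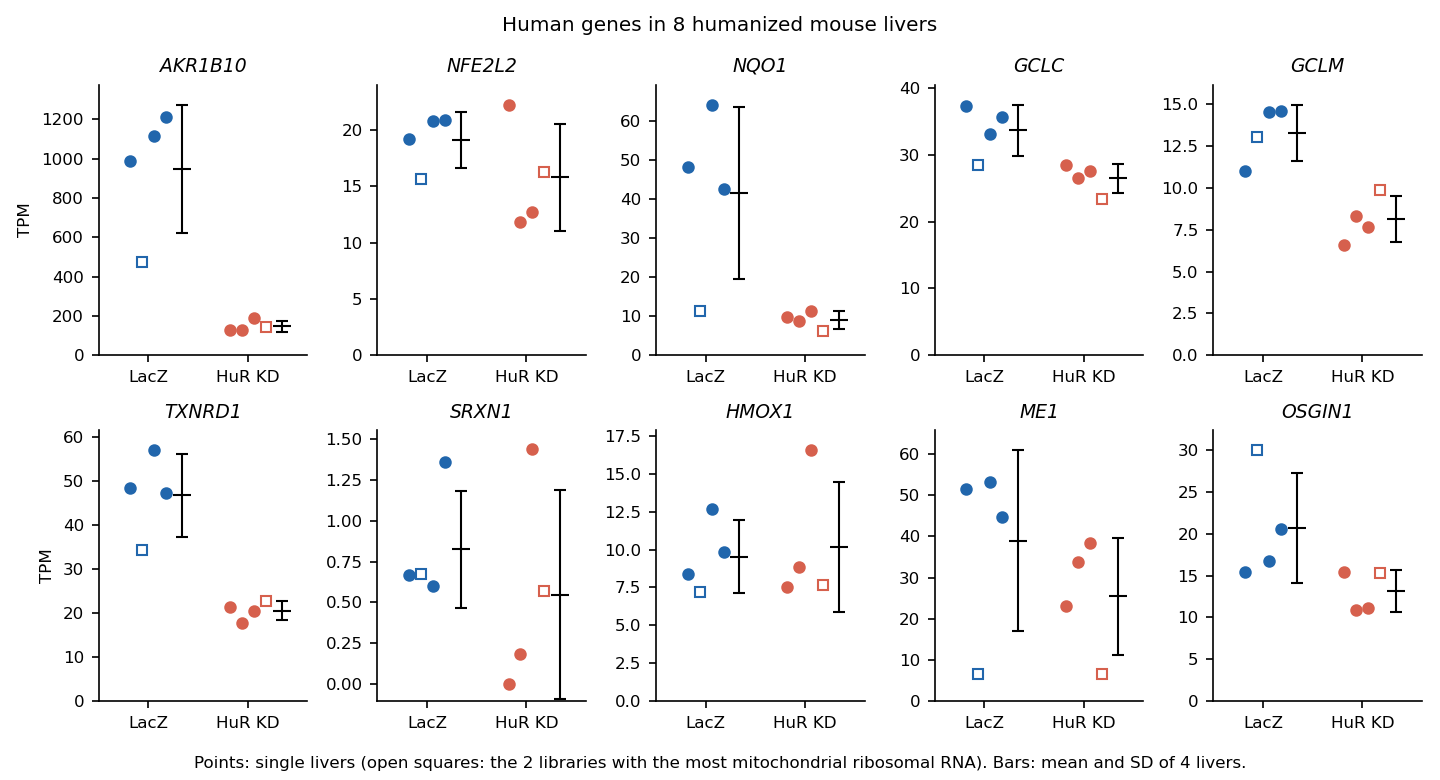
TPM of the 10 human members in each of the 8 humanized mouse livers (LacZ in blue, HuR KD in orange), with the mean and SD of each group of 4 as bars and the 2 libraries that stood apart as open squares. AKR1B10, GCLC, GCLM and TXNRD1 show 2 groups that do not overlap, while the LacZ square of NQO1 lies among the KD points and the squares of ME1 lie at 6.56 and 6.68 TPM.

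Among the relatives of AKR1B10, AKR1B15 and AKR1B10P1 read lower after KD too, at far lower levels, while AKR1B1 did not. AKR1B15, a closely related reductase, was at 0.191, 0.289, 0.902 and 0.727 TPM in the KD livers and at 5.53, 1.36, 5.16 and 4.76 in the LacZ livers (log2 fold change -1.69 ± 0.35 SE, limma unadjusted p = 0.000926, adjusted p = 0.0966). The pseudogene AKR1B10P1 averaged 0.686 ± 0.496 TPM in KD and 4.19 ± 3.34 in LacZ (SD, n = 4 each), with no overlap. AKR1B15 amounted to 0.147% to 0.56% of the AKR1B10 level in each liver, and since reads could be shared between such relatives, the values of AKR1B15 and AKR1B10P1 are uncertain. Both averaged under 1 TPM in KD and were tested only because of their level in the LacZ livers. AKR1B1, the aldose reductase, averaged 0.318 TPM in KD and 0.259 in LacZ. It stayed at or below 0.663 TPM in all 8 livers, in 0 to 23 reads, and was not tested.

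Of the 9 other members in the humanized livers, SRXN1 did not reach a mean of 1 TPM and 8 were tested. NQO1, GCLC, GCLM, TXNRD1 and OSGIN1 were called lower at an unadjusted limma p under 0.05, that is 5 of 8 against a background of 7.87% of the 12738 genes tested. By limma 0 of the 8 were called higher (background 3.60%), and voom on the recovered reads also gave 0. After adjustment over all genes 1 of the 8, TXNRD1, was called lower (background 0.181%). In 3 of the 8, GCLC, GCLM and TXNRD1, all KD livers lay below all LacZ livers (background 5.03%). The median log2 fold change of the 8 was -0.54, beside -0.054 over all genes tested. Lower calls made up 68.7% of all calls in the fit, but 52.5% with median-of-ratios factors and 52.6% with scaling to protein-coding genes. Under either scaling GCLC (unadjusted p = 0.0627 and 0.0541) and OSGIN1 (0.0697 and 0.0783) were no longer called, which left 3 of 8. Voom called 4 lower, without GCLC (unadjusted p = 0.0759 by limma on voom values), and without the 2 libraries that stood apart 6 of 8 were called lower. Over all genes, 876 and 827 were called lower under the scalings and 741 by voom, beside 1003 in the fit. The share of all genes called lower without those 2 libraries is not given here. In a two-sided exact permutation test over the 70 groupings, GCLC, GCLM and TXNRD1 had p = 0.0286, the smallest these groups allow, and NQO1 and OSGIN1 had p = 0.0571.

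NFE2L2, which encodes NRF2 itself, was at 22.3, 11.9, 12.8 and 16.3 TPM in the KD livers and at 19.2, 15.6, 20.8 and 20.9 TPM in the LacZ livers. The highest single value belonged to a KD liver, and the groups overlapped. The log2 fold change of -0.29 ± 0.20 SE did not pass (limma unadjusted p = 0.182), although without KD liver 1 it was -0.46 (limma unadjusted p = 0.0274). Without the 2 libraries that stood apart it was -0.41 ± 0.24 SE (limma unadjusted p = 0.122).

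NQO1 (ENSG00000181019.13) reduces quinones to hydroquinones and is a common readout of NRF2 activity. It was at 9.93, 8.81, 11.48 and 6.16 TPM in the KD livers and at 48.2, 11.46, 64.3 and 42.7 TPM in the LacZ livers. All LacZ livers but liver 2 were far above every KD liver, and LacZ liver 2 lay just under the highest KD value. The KD mean was 21.8% of the LacZ mean (log2 fold change -1.88 ± 0.46 SE, limma unadjusted p = 0.00253, adjusted p = 0.146). Without the 2 libraries that stood apart, the change was -2.24 ± 0.19 SE (limma unadjusted p = 3.64e-06). That fit, chosen after seeing the data, leaves out the only LacZ liver that overlapped the KD livers, so its p-value may be too small. Between those 2 libraries the LacZ level was 1.86-fold the KD level.

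GCLC (ENSG00000001084.13) and GCLM (ENSG00000023909.10) are the catalytic and the modifier subunit of glutamate-cysteine ligase, the limiting enzyme of glutathione synthesis. GCLC was at 28.42, 26.5, 27.5 and 23.4 TPM in the KD livers and at 37.3, 28.53, 33.1 and 35.7 TPM in the LacZ livers. The groups touched without overlapping, and the KD mean was 78.6% of the LacZ mean (log2 fold change -0.33 ± 0.13 SE, limma unadjusted p = 0.0339, adjusted p = 0.383). This call was lost on leaving out any 1 of KD livers 2 and 4 and LacZ livers 1, 3 and 4 (limma unadjusted p from 0.0577 to 0.0932), and without the 2 libraries that stood apart GCLC was at -0.35 ± 0.13 SE (limma unadjusted p = 0.0287). GCLM was at 6.62, 8.30, 7.68 and 9.90 TPM in the KD livers and at 10.99, 13.1, 14.5 and 14.6 TPM in the LacZ livers. No LacZ liver was as low as any KD liver, and the KD mean of this modifier subunit was 61.1% of the LacZ mean (log2 fold change -0.65 ± 0.16 SE, limma unadjusted p = 0.00228, adjusted p = 0.140), and its unadjusted call was kept under every alternative run. Without the 2 libraries that stood apart GCLM was at -0.75 ± 0.17 SE (limma unadjusted p = 0.0028).

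TXNRD1 (ENSG00000198431.16), the cytosolic thioredoxin reductase, was at 21.4, 17.8, 20.5 and 22.8 TPM in the KD livers and at 48.3, 34.3, 57.0 and 47.3 TPM in the LacZ livers. The groups were well separated, and again LacZ liver 2 was the lowest control. The KD mean was 44.1% of the LacZ mean (log2 fold change -1.13 ± 0.17 SE, limma adjusted p = 0.0455). The LacZ level was 1.51-fold the KD level between the 2 libraries that stood apart and 2.56-fold without them (-1.31 ± 0.15 SE, limma unadjusted p = 2.76e-05). Sulfiredoxin, which repairs overoxidised peroxiredoxins and is encoded by SRXN1, was near the floor of detection. SRXN1 was at 0, 0.18, 1.44 and 0.57 TPM in the KD livers and at 0.667, 0.675, 0.601 and 1.36 TPM in the LacZ livers, which is 0 to 20 reads per liver, and no change could be read at this depth.

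HMOX1, the inducible haem oxygenase, did not pass the test. It was at 7.53, 8.85, 16.5 and 7.69 TPM in the KD livers and at 8.39, 7.17, 12.7 and 9.87 TPM in the LacZ livers, with overlapping groups. The log2 fold change was 0.041 ± 0.26 SE (limma unadjusted p = 0.877), and its sign turned when KD liver 3, LacZ liver 1 or LacZ liver 2 was left out. Without the 2 libraries that stood apart it was 0.025 ± 0.29 SE (limma unadjusted p = 0.933).

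ME1, malic enzyme, makes NADPH in the cytosol. It was at 23.05, 33.8, 38.5 and 6.56 TPM in the KD livers and at 51.5, 6.68, 53.1 and 44.6 TPM in the LacZ livers. The 2 lowest values, 1 in each group, were those of the 2 libraries that stood apart, and the change over all 8 livers did not pass (log2 fold change -0.50 ± 0.71 SE, limma unadjusted p = 0.499). Among the other 6 livers every KD value lay below every LacZ value (-0.66 ± 0.21 SE, limma unadjusted p = 0.0133, adjusted p = 0.184). Leaving out LacZ liver 2 alone gave -1.18 (limma unadjusted p = 0.0473) and leaving out KD liver 4 alone gave 0.023.

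OSGIN1, a growth inhibitor induced by oxidative stress, was at 15.5, 10.9, 11.1 and 15.25 TPM in the KD livers and at 15.4, 29.9, 16.7 and 20.5 TPM in the LacZ livers. The groups overlapped slightly, and here LacZ liver 2 was the highest control. The KD mean was 63.9% of the LacZ mean (log2 fold change -0.58 ± 0.22 SE, limma unadjusted p = 0.0272, adjusted p = 0.358). The call was lost without KD liver 2 or 3 or LacZ liver 2 or 4 (limma unadjusted p from 0.0544 to 0.0732), and without the 2 libraries that stood apart OSGIN1 was at -0.47 ± 0.19 SE (limma unadjusted p = 0.0413).

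**Figure D2:**
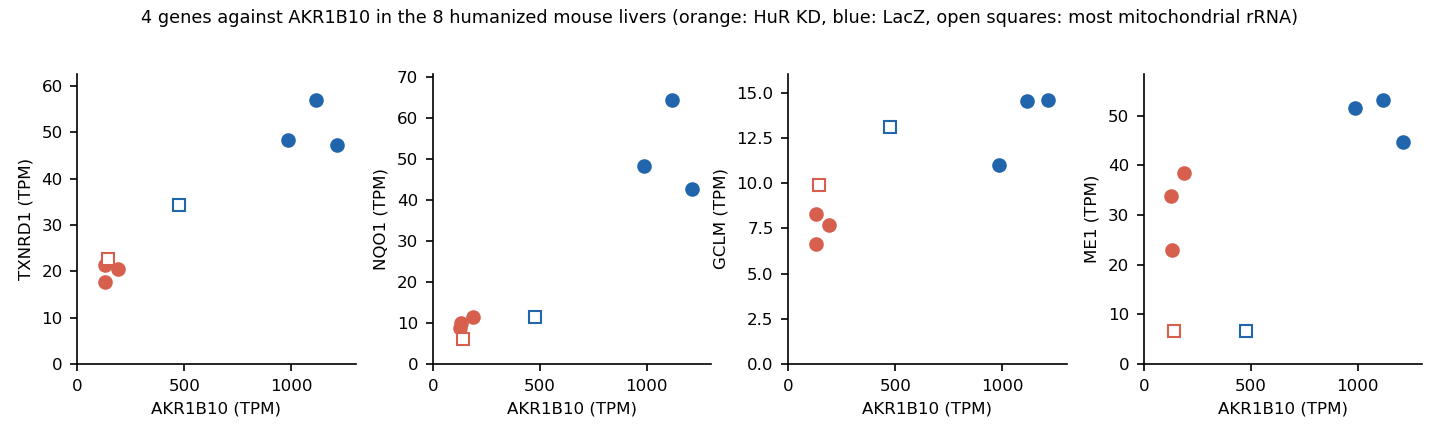
TPM of TXNRD1, NQO1, GCLM and ME1 against TPM of AKR1B10, 1 point per humanized mouse liver (HuR KD in orange, LacZ in blue, the 2 libraries that stood apart as open squares). The KD livers form 1 tight cluster on the AKR1B10 axis between 128 and 189 TPM, and the LacZ square is the control nearest to it.

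Across the 8 humanized livers, log2(TPM + 1) of TXNRD1 and NQO1 lay closest to that of AKR1B10 among the members tested. Pearson's r with AKR1B10 was 0.977 for TXNRD1, 0.928 for NQO1, 0.883 for GCLC, 0.865 for GCLM, 0.533 for NFE2L2, 0.513 for OSGIN1, 0.439 for ME1 and 0.15 for HMOX1. The points fall into the KD and the LacZ cluster, so these values mainly describe the difference between the groups. Over all genes tested, the 5 genes most like AKR1B10 were LGALS3 (r = 0.996), ADH1C (0.991), NOTCH2 (0.986), AGFG1 (0.985) and MBTPS1 (0.984). ADH1C, an alcohol dehydrogenase, averaged 408 ± 38.5 TPM in KD and 1132 ± 306 in LacZ, and LGALS3, a galectin, 3.83 ± 0.634 and 10.7 ± 2.43 (SD, n = 4 each).

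In the WT livers Nqo1 and Gclm were called lower. These were 2 of the 10 mouse members at an unadjusted limma p under 0.05, where 6.94% of the 15090 genes tested were. By limma 0 of 10 were called higher (background 9.09%), and by voom also 0. After adjustment 0 of 10 were called lower (background 0.517%). In 0 of 10 did all KD livers lie below all LacZ livers (background 1.23%). By two-sided exact permutation over 924 groupings, p was 0.00433 for Gclm, 0.0195 for Nqo1 and 0.0216 for Txnrd1. The median log2 fold change of the 10 was -0.13, beside 0.029 over all genes tested. Levels are given as the lowest, median and highest of 6 livers, and the TPM of the human and mouse tables were scaled separately.

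Akr1b10, on chromosome 6 of GRCm38 from 34384218 to 34396950 on the plus strand, was barely expressed. It was at 1.12, 1.79 and 2.01 TPM in the KD livers and at 1.44, 1.82 and 2.32 in the LacZ livers, in 3 to 120 reads per liver. The groups overlapped almost fully (log2 fold change -0.088 ± 0.12 SE, limma unadjusted p = 0.479). Its neighbours on the same chromosome were low as well. Akr1b8 averaged 4.19 ± 0.856 TPM in KD and 4.16 ± 1.03 in LacZ (SD, n = 6 each), and Akr1b7 did not reach a mean of 1 TPM. The 5 genes most like Akr1b10 over the 12 livers were Arhgap25 (r = 0.924), Gm37653 (0.910), Fut8 (0.907), Cpeb1 (0.906) and Cp (0.905), and these values, too, are descriptions over libraries that differ in depth.

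**Figure D3:**
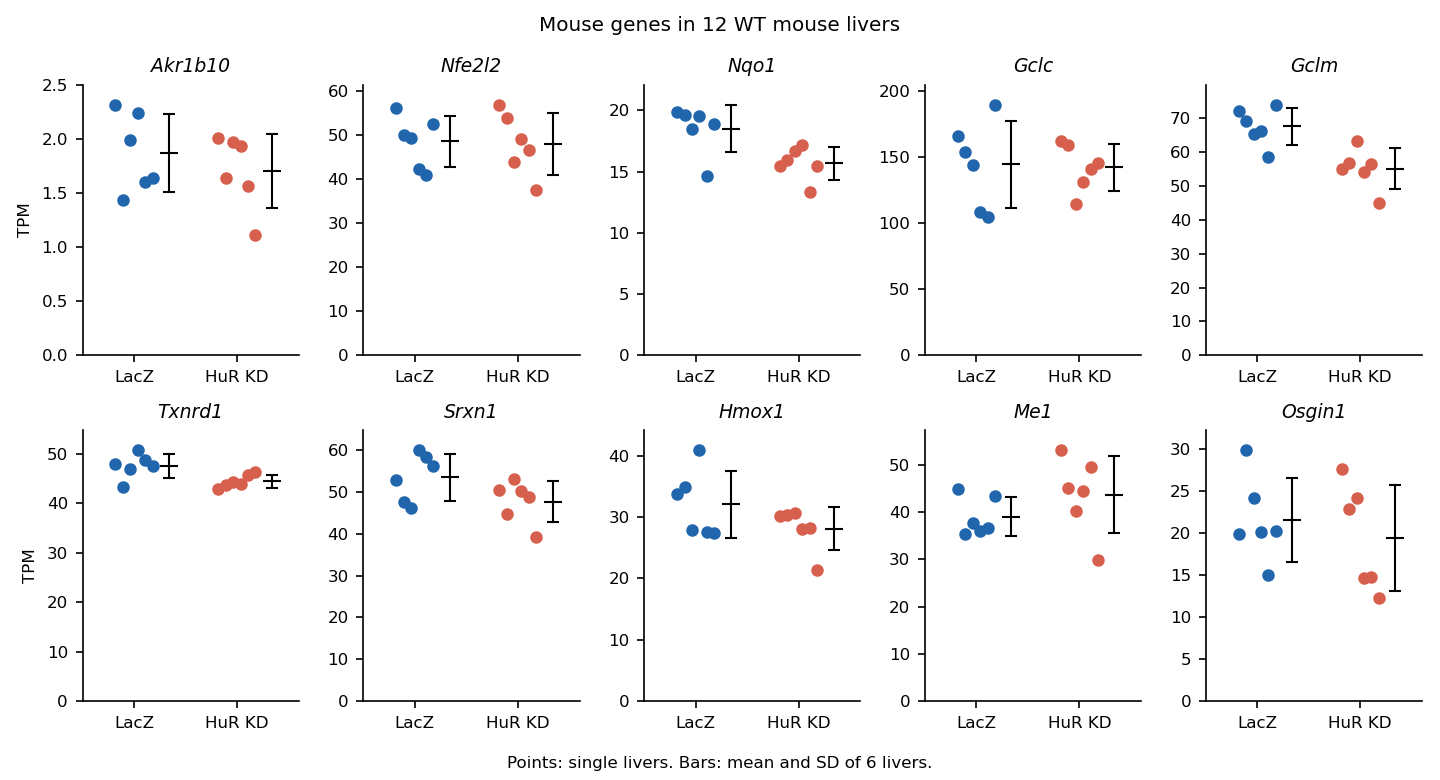
TPM of the 10 mouse members in each of the 12 WT mouse livers (LacZ in blue, HuR KD in orange), with the mean and SD of each group of 6 as bars. The groups overlap in every panel, least in Gclm, where 5 of the 6 KD livers lie below all LacZ livers.

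Nfe2l2 was at 37.5, 47.7 and 56.9 TPM in the KD livers and at 40.8, 49.7 and 56.0 in the LacZ livers, with largely overlapping groups (log2 fold change -0.022 ± 0.11 SE, limma unadjusted p = 0.843). Nqo1, on chromosome 8 from 107388225 to 107403206 on the minus strand, was at 13.3, 15.7 and 17.1 TPM in the KD livers and at 14.7, 19.2 and 19.9 in the LacZ livers. Apart from LacZ liver 5, at 14.7 TPM, every LacZ liver lay above every KD liver (log2 fold change -0.23 ± 0.082 SE, limma unadjusted p = 0.0173, adjusted p = 0.201), and voom with limma on the recovered reads gave an unadjusted p of 0.0528.

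Gclc was at 114, 143 and 162 TPM in the KD livers and at 105, 149 and 189.6 in the LacZ livers, a log2 fold change of 0.0010 ± 0.15 SE (limma unadjusted p = 0.995). Gclm, on chromosome 3 from 122245557 to 122270732 on the plus strand, was at 44.8, 55.8 and 63.2 TPM in the KD livers and at 58.5, 67.7 and 74.0 in the LacZ livers. In 5 of 6 KD livers it was below every LacZ liver, and its mean was 81.5% of the LacZ mean (log2 fold change -0.29 ± 0.082 SE, limma unadjusted p = 0.00342, adjusted p = 0.105). Of the ligase subunits, then, the modifier passed and the catalytic subunit did not, and in the humanized livers both passed. There the call of GCLC was kept in 7 of 16 alternatives. The change of GCLC did not pass as different between the sets (joint limma fit, unadjusted p = 0.122).

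Txnrd1 was at 42.9, 44.1 and 46.3 TPM in the KD livers and at 43.3, 47.7 and 50.6 in the LacZ livers (log2 fold change -0.094 ± 0.049 SE, limma unadjusted p = 0.0767). Without LacZ liver 2, the shallow library, it was called lower, at -0.12 (limma unadjusted p = 0.0215), and without KD liver 6 at -0.11 (limma unadjusted p = 0.0399). With no filter on TPM it was called too (limma unadjusted p = 0.0337), which made 3 of 10. Srxn1, near the floor in the human table, was well expressed here, at 39.2, 49.4 and 53.1 TPM in KD and 46.1, 54.5 and 59.9 in LacZ (log2 fold change -0.16 ± 0.088 SE, limma unadjusted p = 0.088). Among the alternatives it was called lower when LacZ liver 3 was left out (limma unadjusted p = 0.0405).

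Hmox1 was at 21.3, 29.2 and 30.6 TPM in KD and 27.4, 30.8 and 40.9 in LacZ (log2 fold change -0.18 ± 0.11 SE, limma unadjusted p = 0.146). Me1 was at 29.8, 44.8 and 53.0 TPM in KD and 35.3, 37.1 and 44.9 in LacZ. Within Me1 the spread was wider among the KD livers (SD 8.12 TPM) than among the LacZ livers (4.15). Its log2 fold change was 0.15 ± 0.12 SE (limma unadjusted p = 0.258), and without KD liver 6, the lowest, it was called higher, at 0.25 (limma unadjusted p = 0.0139). Osgin1 was at 12.3, 18.9 and 27.6 TPM in KD and 14.9, 20.2 and 29.8 in LacZ (log2 fold change -0.17 ± 0.20 SE, limma unadjusted p = 0.416).

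**Figure D4:**
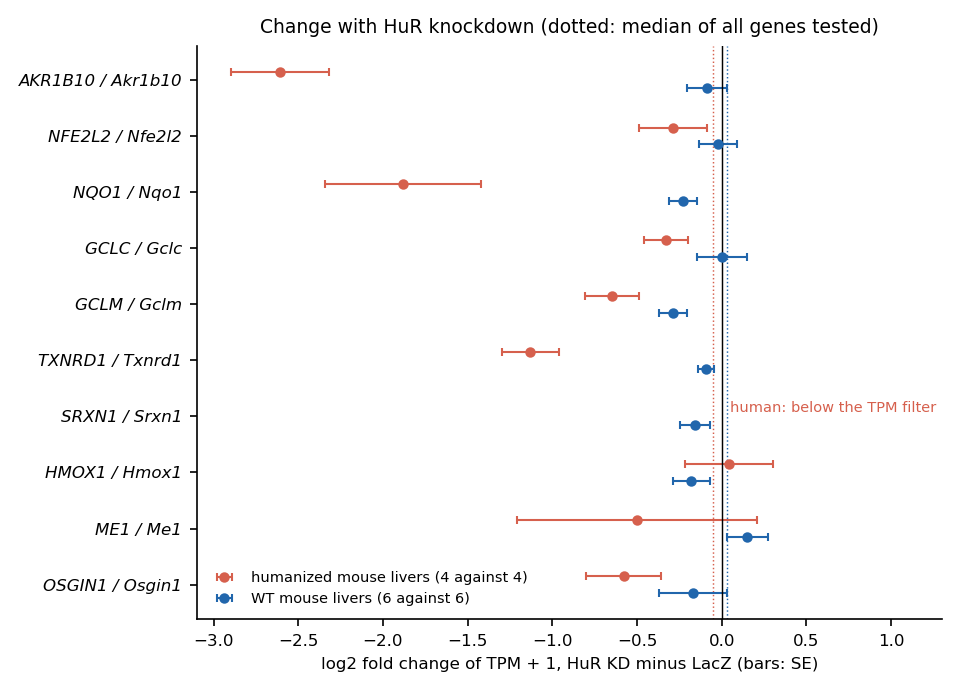
Log2 fold change of each member, HuR KD minus LacZ, on the log2(TPM + 1) scale with its SE, in the humanized (orange) and WT (blue) mouse livers. The dotted lines mark the medians of all genes tested, -0.054 and 0.029, and the orange points of AKR1B10, NQO1 and TXNRD1 lie furthest to the left.

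The change itself was compared between the sets in a joint limma fit over 8192 genes with the same symbol, ignoring case, where 19.7% had an unadjusted p under 0.05 for the difference and 4.99% an adjusted one. The log2 fold change of NQO1 in the humanized livers minus that in the WT livers was -1.65 ± 0.40 SE (limma adjusted p = 0.0181). TXNRD1 differed by -1.03 ± 0.15 SE (limma adjusted p = 0.000523). The joint fit pools the spread of both sets, so these SEs fell below those in the humanized livers alone (0.46 for NQO1, 0.17 for TXNRD1). The p-values of the differences may therefore be too small. GCLM differed by -0.36 ± 0.16 SE at an unadjusted p of 0.0348 but not after adjustment (limma adjusted p = 0.206). For NFE2L2, GCLC, HMOX1, ME1 and OSGIN1 the differences of -0.27 ± 0.21, -0.33 ± 0.21, 0.22 ± 0.26, -0.64 ± 0.62 and -0.41 ± 0.31 SE did not pass (limma unadjusted p from 0.122 to 0.402). AKR1B10 was not compared, since it was chosen for its change.

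The order of the levels differed between the tables too. In the humanized LacZ livers the mean TPM ran from AKR1B10 (948) over TXNRD1 (46.7), NQO1 (41.7), ME1 (39.0), GCLC (33.7), OSGIN1 (20.6), NFE2L2 (19.1), GCLM (13.3) and HMOX1 (9.53) to SRXN1 (0.827). From TXNRD1 to GCLC, and from OSGIN1 to NFE2L2, neighbours lay closer than the larger of their SDs. In the WT LacZ livers it ran from Gclc (144) over Gclm (67.5), Srxn1 (53.5), Nfe2l2 (48.5), Txnrd1 (47.5), Me1 (39.0), Hmox1 (32.1), Osgin1 (21.5) and Nqo1 (18.5) to Akr1b10 (1.87). There the same held from Srxn1 to Txnrd1, and for Osgin1 and Nqo1.

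Beyond the members, 68 human and 71 mouse genes of the pathway were read in 7 lists, which were chosen with earlier results of these data known. The human and mouse lists differ in some genes. In the humanized livers 58 were tested, of which 14 were called lower and 0 higher by limma at an unadjusted p under 0.05 (voom gave 12 and 1), with 0 called after adjustment. Over all genes tested there, 7.87% were called lower, 3.60% higher and 0.181% lower after adjustment, and voom called 741 genes lower and 585 higher. The median log2 fold change of the 58 was -0.22, beside -0.054 over all genes. Of the 58, 42 were below 0, where 57.3% of all genes tested were. In the WT livers 64 were tested, of which 15 were called lower and 0 higher by limma at that threshold (voom gave 16 and 2), and 2 were lower after adjustment. Over all genes tested, 6.94% were called lower, 9.09% higher and 0.517% lower after adjustment, and voom called 1169 genes lower and 1848 higher. The median of the 64 was -0.068, beside 0.029 over all genes. Of the 64, 37 were below 0, where 43.2% of all genes tested were. Without the 2 humanized libraries that stood apart 24 of the 58 were called lower, and without LacZ liver 2 alone 23. The share of all genes called lower in those fits is not given here, so these counts have no background. GGT1, which the human table lists under 2 gene IDs, was not counted. Of the 14, AKR1B15, AKR1B10P1 and TRIM16 averaged under 1 TPM in KD and were tested only because of their level in the LacZ livers.

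The regulators of NRF2, among them KEAP1, CUL3, BACH1 and the small MAF proteins, gave 0 calls of 9 tested by limma at an unadjusted p under 0.05 in the humanized livers, 0 by voom, and a median of 0.060. Over all genes tested there, 7.87% were called lower and 3.6% higher, so with so few genes 0 calls does not show that the regulators were unchanged. In the WT livers 1 of 11 was called lower (all genes 6.94%). Mafg, a small MAF partner of NRF2, averaged 25.4 ± 3.30 TPM in KD and 31.0 ± 1.83 in LacZ (SD, n = 6 each, log2 fold change -0.28, limma adjusted p = 0.113).

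Among the glutathione genes 2 of 9 human and 2 of 9 mouse genes tested were called lower, where all genes gave 7.87% and 6.94%. GPX2, a glutathione peroxidase, was at 19.2, 27.8, 47.1 and 34.95 TPM in the humanized KD livers and at 60.4, 66.0, 102 and 68.3 TPM in the LacZ livers (log2 fold change -1.22 ± 0.27 SE, limma adjusted p = 0.114). MGST1, a microsomal glutathione transferase, averaged 91.4 ± 7.23 TPM against 134 ± 23.7 (limma adjusted p = 0.244). Its mouse counterpart Mgst1 was also called lower (3318 ± 275 against 3873 ± 205 TPM, limma adjusted p = 0.169), together with Gsta4, which conjugates lipid aldehydes (33.9 ± 5.76 against 59.7 ± 20.8 TPM, limma adjusted p = 0.134).

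In the thioredoxin and peroxiredoxin list 1 of 4 human and 2 of 4 mouse genes were called lower (all genes 7.87% and 6.94%), and voom called 1 of the human genes higher. Thioredoxin itself was lower in both sets, TXN at 224 ± 25.3 against 309 ± 50.8 TPM (limma adjusted p = 0.305) and Txn1 at 230.4 ± 27.9 against 271 ± 27.8 TPM (limma adjusted p = 0.246). Glrx, a glutaredoxin, was the other mouse gene (19.6 ± 3.12 against 24.0 ± 3.63 TPM, limma adjusted p = 0.269).

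Of the NADPH supply genes 1 of 5 human genes was called lower (all genes 7.87%), TKT, the transketolase of the pentose phosphate pathway, at 13.8 ± 3.47 against 27.5 ± 11.0 TPM (limma adjusted p = 0.369). In the mouse 0 of 5 were called by limma at an unadjusted p under 0.05 (all genes 6.94% lower and 9.09% higher), and 0 by voom. Of the haem and iron genes 1 of 6 human genes was called lower (all genes 7.87%), FTH1, the ferritin heavy chain. FTH1 was at 168, 168, 205 and 174 TPM in the KD livers and at 277, 258, 288 and 331 TPM in the LacZ livers, without overlap (log2 fold change -0.69 ± 0.13 SE, limma adjusted p = 0.0881). In the mouse 0 of 7 were called by limma at that threshold (all genes 6.94% lower and 9.09% higher), and voom called 1 higher.

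The detoxification and export list had 5 of 15 human and 5 of 16 mouse genes called lower, where all genes gave 7.87% and 6.94%. Voom called 3 of the human genes lower, and 6 of the mouse genes lower and 1 higher. TRIM16L was at 3.70, 2.35, 3.54 and 2.40 TPM in the humanized KD livers and at 9.86, 4.69, 12.0 and 10.3 TPM in the LacZ livers (log2 fold change -1.31 ± 0.26 SE, limma adjusted p = 0.0936). ABHD4, a lipid hydrolase, averaged 2.16 ± 0.937 against 6.21 ± 2.26 TPM (limma adjusted p = 0.146). In the mouse, Ugdh, which makes the sugar donor for glucuronidation, averaged 28.0 ± 2.47 against 36.8 ± 2.83 TPM with no overlap (log2 fold change -0.38 ± 0.072 SE, limma adjusted p = 0.0376). The bile canalicular pump Abcc2 averaged 187 ± 19.7 against 237 ± 20.6 TPM (limma adjusted p = 0.0682).

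Among the aldo-keto reductases 4 of 10 human and 5 of 12 mouse genes were called lower, where all genes gave 7.87% and 6.94%. All 10 human genes tested had a log2 fold change below 0 (median -0.43), as did 57.3% of all genes tested in the humanized livers. Of the 4 human calls, 2 are AKR1B15 and AKR1B10P1, whose values are uncertain since reads could be shared with AKR1B10. Both averaged under 1 TPM in KD and were tested only because of their level in the LacZ livers, so the count rests in part on them. The others were AKR1C1 and AKR1C2, near-identical hydroxysteroid dehydrogenases whose reads could be shared. AKR1C2 averaged 83.9 ± 8.33 against 133 ± 21.9 TPM with no overlap (log2 fold change -0.65 ± 0.16 SE, limma adjusted p = 0.141). In the mouse the 5 genes were Akr1c family members. Akr1c6, a hydroxysteroid dehydrogenase, averaged 408 ± 78.3 against 699.9 ± 146 TPM (log2 fold change -0.77 ± 0.16 SE, limma adjusted p = 0.0454), and Akr1c19 averaged 27.6 ± 2.52 against 37.9 ± 7.60 TPM (limma adjusted p = 0.108).

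**Figure D5:**
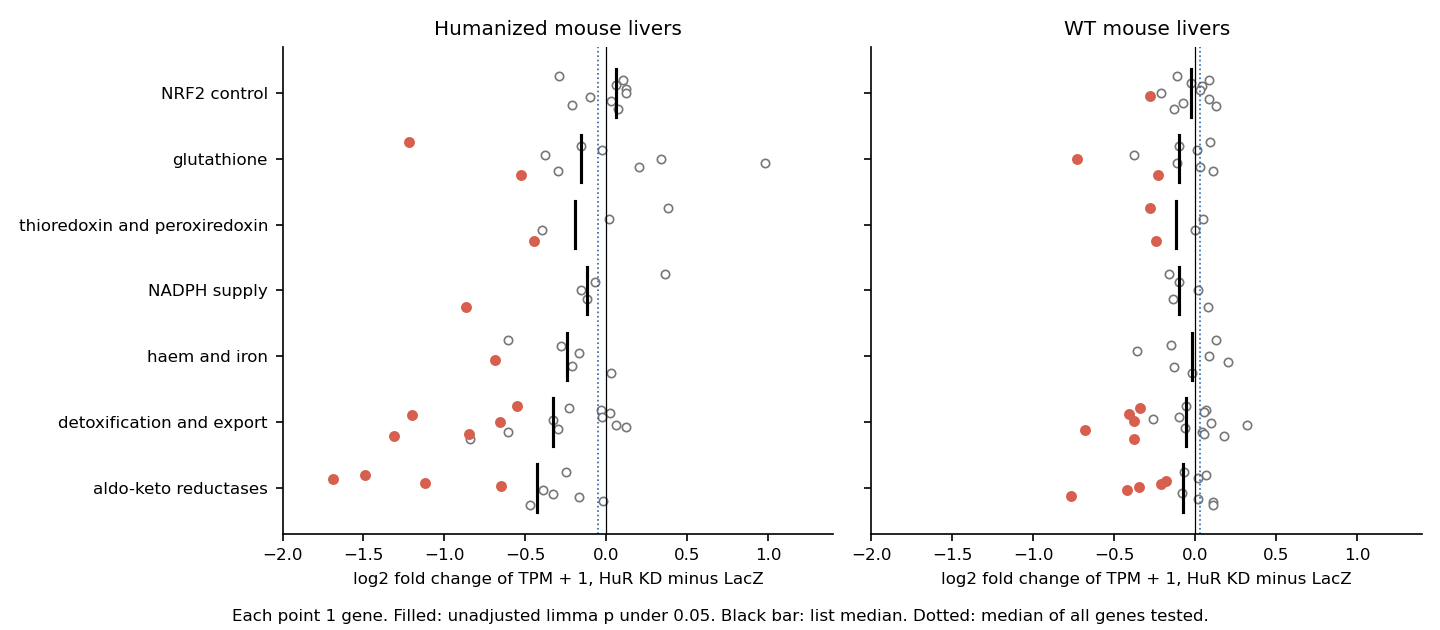
Log2 fold change, HuR KD minus LacZ on the log2(TPM + 1) scale, of each tested gene of the 7 pathway lists in humanized (left) and WT (right) mouse livers. Filled points had an unadjusted limma p under 0.05, black bars are list medians and the dotted line is the median of all genes tested, and all filled points lie below 0.

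Cell type markers moved with the KD in part. Over all genes tested, 7.87% were called lower and 3.60% higher in the humanized livers, and 6.94% and 9.09% in the WT livers. In the humanized livers, 0 of 5 hepatocyte markers were called, with summed levels of 37960 to 66602 TPM in KD and 41240 to 87547 in LacZ. Of the 10 human macrophage markers MARCO, VSIG4, C1QA, C1QB and C1QC were at 0 in every liver and the sum stayed at or below 4.83 TPM. CD3D, CD3E, CD8A and NKG7 of the 5 T and NK cell markers and HBA1 of the 4 erythroid markers were at 0 throughout, with sums of at most 0.441 and 0.626 TPM, and the 4 endothelial markers summed to at most 0.865 TPM. Of the cholangiocyte markers, which summed to 5.46 to 26.9 TPM in KD and 11.6 to 35.9 in LacZ, 1 of 3 tested was called lower, EPCAM (6.47 ± 6.07 TPM in KD, 13.3 ± 5.23 in LacZ, SD, n = 4 each), whose highest KD value, 15.3 TPM, was that of liver 4. The 4 stellate and fibroblast markers summed to 0.757 to 1.68 TPM in KD and 2.53 to 4.67 in LacZ, and RELN, the 1 tested, was called lower. RELN averaged 0.826 TPM in KD and was tested only because of its level in the LacZ livers, 3.29 TPM. In the WT livers the 12 macrophage markers, none at 0, summed to 484 to 821 TPM in KD and 685 to 941 in LacZ, and 6 of the 11 tested were called lower. Cd163 alone of the 11 had a log2 fold change above 0, 0.24, and was not called. The stellate marker Lrat was called lower (7.67 ± 1.26 TPM in KD, 9.90 ± 2.16 in LacZ, SD, n = 6 each), while the endothelial marker Stab2 (42.5 ± 4.59 against 37.4 ± 3.19 TPM) and the erythroid marker Hba-a1 (65.3 ± 29.5 against 34.5 ± 10.3 TPM) were called higher. The other tested markers of these lists were not called. Log2 fold changes were -0.17 for Dcn, 0.13 for Col1a1 and 0.10 for Reln. The endothelial Pecam1, Clec4g and Kdr were at 0.0049, -0.018 and -0.063, and the erythroid Hbb-bs and Alas2 at 0.32 and 0.15. Summed levels ran from 79.4 to 118 TPM in KD and 95.6 to 123 in LacZ for the 4 stellate and fibroblast markers, from 106 to 126 and from 98.8 to 126 for the 4 endothelial markers, and from 167 to 563 and from 229.8 to 354 for the 4 erythroid markers. Of the hepatocyte, cholangiocyte and T and NK cell markers tested, 0 of 5, 0 of 1 and 0 of 3 were called by limma at an unadjusted p under 0.05. The part of these markers in the members' changes was not tested.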

How the data were processed

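Total RNA libraries of 20 livers were sequenced. After trimming, the authors aligned reads by HISAT2 to the mouse genome (GENCODE M23, mm10), or for humanized livers to a joined human (GENCODE v32, GRCh38) and mouse index, counted them by featureCounts and deposited TPM. The gene lengths behind the TPM are not given in the sources used here. Each library sums to 1000000, so a dominant RNA lowers all other TPM.

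HuR KD and LacZ livers were compared within each set by limma 3.58.1 (R 4.3.3, lmFit, eBayes with trend) on log2(TPM + 1), after removal of genes whose mean fell under 1 TPM. Calls used an unadjusted p under 0.05, and Benjamini-Hochberg adjusted p-values cover all genes tested. Where livers of a group do not come from separate experiments, p-values measure only the spread between these livers. Reads were recovered in Python 3.11.15 as the smallest whole numbers that fit a gene's TPM across libraries. Such numbers were found for 18701 of 18702 human and 25109 of 25110 mouse genes above 0 in at least 4 libraries. They are known only up to a common factor per gene, so true counts may be a multiple of those given. In a simulated humanized table, 99.6% of such genes came out right. In simulated tables with 200 genes shifted by 1.5 (log2), limma called 93% of these in the humanized and 98.5% in the WT design at the unadjusted threshold. With adjusted p it called 70.5% and 93%. Most member changes were smaller than this shift, and the simulation does not tell how often such changes would be called.

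The members and gene lists were chosen with earlier results of these data known. Named genes are all members, HuR, AKR1B relatives, the 2 genes with the smallest p under 0.05 of each list and set, and the 5 genes most like AKR1B10. EPCAM, RELN, Lrat, Stab2, Hba-a1, TRIM16, Cd163 and the marker genes at 0 were named after their values were seen. So were the other WT stellate, endothelial and erythroid markers tested. Same-numbered livers did not deviate together, so their numbers do not pair them. Alternatives were a pseudocount of 0.1, dropping the TPM filter or raising it to 5, median-of-ratios factors, scaling to protein-coding genes, a replicate block, each liver left out, voom and adjusted p. Leaving out both libraries that stood apart was chosen after seeing the data. Mouse positions are from GENCODE M21.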

Additional observations from a re-analysis of the deposited data

Results flagged for a closer look

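Among 40 sets of values (10 members in 4 groups), 4 single livers lay far from the rest of their group, where chance gives about 1 in 20. SRXN1 was at 1.36 TPM in humanized LacZ liver 4, against 0.675 in the next. HMOX1 was at 16.5 TPM in humanized HuR KD liver 3, against 8.85 in the next, and leaving that liver out turned the small change of HMOX1 from 0.041 to -0.20. Nqo1 was at 14.7 TPM in WT LacZ liver 5, where the nearest LacZ liver had 18.5. Hmox1 was at 21.3 TPM in WT HuR KD liver 6, the shallowest of its group, where the nearest had 28.1.

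The change with HuR KD differed between the humanized and the WT livers for NQO1, by -1.65 on the log2 scale (limma adjusted p = 0.0181), and for TXNRD1, by -1.03 (limma adjusted p = 0.000523). The joint fit pools the spread of both sets, so these p-values may be too small. All 4 humanized KD livers lay below all LacZ livers for TXNRD1, and 3 of 4 for NQO1.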

How the results depend on the processing

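TXNRD1, NQO1 and GCLM in the humanized livers and Gclm in the WT livers kept their direction and their call at the unadjusted threshold under every alternative run, and the log2 fold change of AKR1B10 stayed between -2.91 and -2.46. The 5 humanized members called lower became 3 with a replicate block, with median-of-ratios factors or with scaling to protein-coding genes, 4 with voom, where GCLC lost its call, 6 without both libraries that stood apart and 1 with adjusted p. The numbers do not pair the livers, since same-numbered livers correlated from -0.249 to 0.137 (humanized) and from -0.142 to 0.206 (WT). Leaving out 1 liver gave 3 to 6. For the other pathway genes of the humanized livers, 14 called lower became 10 to 23 without 1 liver, 24 without both libraries that stood apart and 0 with adjusted p, and 0 called higher became 0 to 1 without 1 liver and 1 with median-of-ratios factors, with scaling to protein-coding genes or with voom. In the WT livers 2 members called lower became 1 with voom, 3 with no filter on TPM, 0 with adjusted p and 2 to 3 without 1 liver, and 0 called higher became 0 to 1. Other WT pathway genes called lower numbered 2 with adjusted p and 12 to 16 without 1 liver, and called higher 0 to 2 without 1 liver, 1 with scaling to protein-coding genes and 2 with voom. For the fits with livers left out, the share of all genes called is not given here. Signs turned only for changes near 0 or resting on 1 library. Without 1 liver the log2 fold change of HMOX1 ran from -0.20 to 0.18, ME1 from -1.18 to 0.023, Nfe2l2 from -0.073 to 0.045 and Gclc from -0.085 to 0.086. Nfe2l2 was at 0.0014 with voom and Gclc at -0.014 with median-of-ratios factors. The difference between the sets for GCLM lost its unadjusted call with median-of-ratios factors (limma unadjusted p = 0.0807) and with protein-coding scaling (limma unadjusted p = 0.101). The causes of these changes were not tested. SRXN1 and Akr1b10 are limited by depth.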
